A study of Homo sapiens with 6 samples.

Results

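The probes GI_9845514-I and GI_9845515-A were examined across 3 lines of Caco-2, an established human colon adenocarcinoma line. They are 2 of the 24350 probes on each array that are named by a GI sequence number, and their numbers are neighbours. By the manufacturer's convention the suffix I marks a probe for 1 of several transcript isoforms and the suffix A a probe for all isoforms. The pair was taken up because its GI numbers point to the transcript variants of S100A4. None of the tables used here pairs a probe with a gene (0 of the 24350 IDs matched the RefSeq table), so the gene identity was not established and the values are given by probe ID. The probes were also chosen on the signals described here, since earlier results of these data had shown both among the largest differences between the RAS lines. Their differences between lines are therefore given as a description, with no test.

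As background, S100A4 is a small calcium-binding protein of the S100 family, also known as metastasin and fibroblast-specific protein. It binds non-muscle myosin and changes the motility of cells, and it is a widely used marker of fibroblasts and of epithelial cells that take on mesenchymal features. In colon cancer it is best known for its link with invasion and metastasis, and its gene is a known target of beta-catenin and TCF. The RefSeq table for GRCh38.p14 lists 2 transcripts of S100A4 and places the gene between S100A5 and S100A3.

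The lines were untreated control Caco-2 cells, Caco-2 cells transformed with Ha-Ras and Caco-2 cells transformed with Ki-Ras, with 2 arrays per line, lettered A and B, and 6 in all. Ha-Ras and Ki-Ras are closely related small GTPases that pass growth signals from receptors into the cell, and activating mutations of the latter are common in colon cancer. Total RNA came from cells harvested before confluence, and the design text of the series calls the arrays of a line biological replicates. The labels describe both Ki-Ras samples and Ha-Ras sample B as rapidly growing, and Ha-Ras sample B also as having the phenotype of an epithelial-mesenchymal transition (EMT). Each RAS form is represented by 1 line, and the groups compared are thus lines. The allele, the promoter and whether a line is 1 clone are not given in the sources used here. Without gene names, the identity of the cells and the transgenes could not be checked against marker transcripts.

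The signal of a probe is the mean fluorescence intensity over its beads. Between 9245 and 10192 probes per array were detected, which here means a deposited detection score of at least 0.99. The background mean inferred for an array was 62.1 to 69.8 intensity units with an SD of 6.88 to 7.56. Log2 intensities were corrected for background and quantile normalized, and limma was run on the 10848 probes that both arrays of some line detected. The replicate arrays of a line correlated at r = 0.987 to 0.993 across these probes, which are not independent replicates.

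Both probes were bright in Ha-Ras cells, dim in control cells and close to the background in Ki-Ras cells. The isoform probe GI_9845514-I had signals of 9302.0 and 7527.4 on Ha-Ras arrays A and B, 192.8 and 458.5 on the control arrays, and 84.0 and 86.6 on the Ki-Ras arrays. The lowest Ha-Ras signal was 16.4 times the highest control signal, and the lowest control signal was 2.23 times the highest Ki-Ras signal, so no array of one line overlapped another line. The all-isoform probe GI_9845515-A had signals of 6518.1 and 5561.3 on the Ha-Ras arrays, 392.1 and 329.4 on the control arrays, and 82.6 and 73.9 on the Ki-Ras arrays. Here too the lines were separate, by 14.2 times between Ha-Ras and control and by 3.99 times between control and Ki-Ras cells. The share of all tested probes whose lines were likewise separate was not counted, so this separation does not set the pair apart. Depending on the lines compared, 54% to 59.7% of the tested probes were called different (limma, adjusted p below 0.05). The Ha-Ras sample described with the EMT phenotype, B, and the Ha-Ras sample with no such description, A, were both in the bright range.

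**Figure D1:**
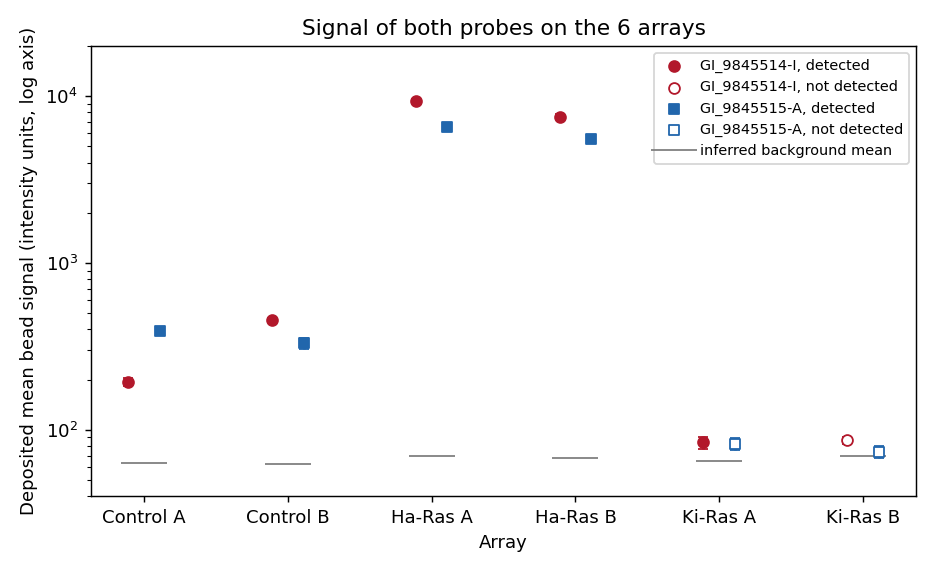
Deposited mean bead signal (log axis) of GI_9845514-I (circles) and GI_9845515-A (squares) on the 6 arrays, with the deposited bead spread as error bars, open symbols for arrays where the probe was not detected, and grey bars for the inferred background mean. Both probes sit between 5561.3 and 9302.0 on the Ha-Ras arrays, between 192.8 and 458.5 on the control arrays, and between 73.9 and 86.6 on the Ki-Ras arrays.

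The Ki-Ras signals were measured at the edge of detection. GI_9845514-I lay 2.74 and 2.40 background SDs above the background mean on Ki-Ras arrays A and B, with detection scores of 0.992 and 0.9897, so that the threshold fell between its replicates. GI_9845515-A lay 2.53 and 0.64 SDs above it, with scores of 0.988 and 0.752, and was detected on neither array. The isoform probe was thus detected on 5 of 6 arrays and the all-isoform probe on 4 of 6, and at a score of 0.95 these counts were 6 and 5. GI_9845515-A belongs to the 316 probes detected on every control and Ha-Ras array and on no Ki-Ras array, and GI_9845514-I to the 277 that were detected on 1 Ki-Ras array as well. In bulk RNA, a low signal in every cell and a higher signal in a few cells cannot be told apart.

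After normalization, GI_9845514-I stood at a log2 intensity of 12.84 ± 0.032 (SD, n = 2) in Ha-Ras cells, 7.92 ± 0.85 in control cells and 5.20 ± 0.049 in Ki-Ras cells. It was 30.3-fold higher in Ha-Ras than in control cells, a log2 difference of 4.92 ± 0.30 (SE). In Ki-Ras cells it was lower than in control cells by a fitted 6.62-fold (log2 difference -2.73 ± 0.30 SE), and 1 of the Ki-Ras arrays detected it. GI_9845515-A stood at 12.36 ± 0.028 in Ha-Ras cells, 8.29 ± 0.44 in control cells and 4.87 ± 0.42 in Ki-Ras cells. It was 16.7-fold higher in Ha-Ras than in control cells (log2 difference 4.06 ± 0.24 SE). In Ki-Ras cells it was lower than in control cells by a factor of at least 8.61 with the offset of 16 used in the background correction. The "at least" marks a bound at that offset only, and with an offset of 50 the fitted factor was 5.49. Such a bound is given where no array of the dimmer line detected a probe. That line was then set, per array, to the lowest normalized signal of a detected probe or to the probe's own signal, whichever was higher. The mean deposited signals of GI_9845515-A, which still hold the background, were 4.61 times as high in control as in Ki-Ras cells.

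The gap between the RAS lines was the widest of the 3 differences for both probes. GI_9845514-I was 200.5-fold higher in Ha-Ras than in Ki-Ras cells by the fit, and GI_9845515-A at least 144-fold. The latter is again a bound at the offset of the main fit only. With an offset of 50 the fitted folds were 104 for GI_9845514-I and 83.1 for GI_9845515-A. The mean deposited signals differed 98.6 and 77.2 times. The size of these folds depended on the background correction. Without it the fitted folds between the RAS lines were 85.0 and 67.7, and those between control and Ki-Ras cells 3.41 for GI_9845514-I and 4.67 for GI_9845515-A. The Ha-Ras to control folds were 24.9 and 14.5 in that case, nearer to the values with correction.

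**Figure D2:**
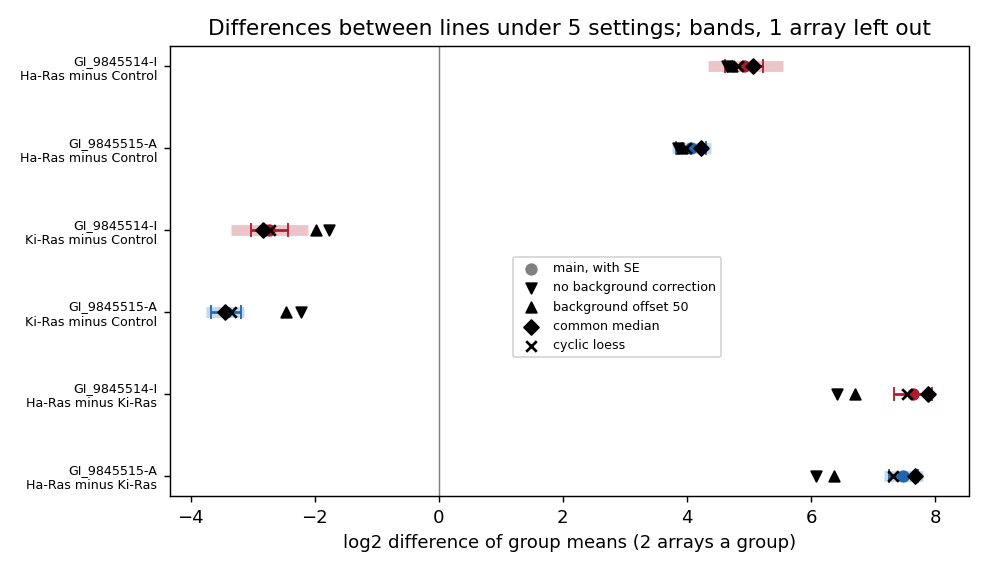
Log2 difference of group means for both probes in the 3 comparisons, as reported (coloured circles, with the SE of the fit), under 4 other settings of background correction and normalization (black symbols) and with each array left out in turn (bands from the lowest to the highest value). The differences between Ha-Ras and control cells lie between 3.76 and 5.54 under these settings, and the differences that involve Ki-Ras cells move toward 0 without background correction.

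Many of the probes on these arrays differed between the lines, which sets the frame for a pair chosen on such differences. Of all probes tested, 54% were called different between Ha-Ras and control cells at an adjusted p below 0.05 (limma, Benjamini-Hochberg), 28.6% higher and 25.4% lower in Ha-Ras cells. Between Ki-Ras and control cells 55.1% were called, 27.9% higher and 27.2% lower in Ki-Ras cells. Between the RAS lines 59.7% were called, 31.6% of all probes as higher in Ha-Ras cells. Calls in opposite directions against control, higher in one RAS line and lower in the other, made up 6.92% of the tested probes, and both comparisons share the control arrays. The pair was chosen on these comparisons, so its own calls would restate the choice.

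The 2 control arrays gave different pictures of the isoform probe. GI_9845514-I was 2.38 times as bright on control array B as on array A, whereas GI_9845515-A was 1.19 times as bright on A as on B, so the probes moved in opposite directions between the same arrays. The signal of GI_9845514-I rested on 56 and 45 beads there, and its gap of 265.7 intensity units was 16.5 times the combined bead error. The gap of GI_9845515-A was 62.7 units, or 2.09 times its combined bead error, over 38 and 41 beads. The deposited bead spread is headed as a bead standard deviation and is not defined further. It was taken as the error of a mean, because at a given brightness it fell with the number of beads. The slope was -0.40 to -0.44 on log axes, where a standard error gives -0.5 and an SD gives none. If it were an SD, the bead errors would be smaller and the multiples of them given here larger.

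Set beside the other probes, the gap of GI_9845514-I between the control arrays was rare. After normalization it was 1.20 on the log2 scale, where the median gap of the 10848 tested probes was 0.20, and 13 probes including this one had a gap at least as wide. Of the 36 probes with a gap of at least 1 between the control arrays, 31 were lower on array A, as GI_9845514-I was. The gap of GI_9845515-A was 0.62, reached by 480 probes. On the uncorrected log2 signal with the median gap set to 0, the gap of GI_9845514-I was reached by 5 probes, itself included. Background left in the signal narrows the gaps of dim probes, so this rank is fair only among probes of like brightness.

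After normalization, the Ha-Ras arrays gave close values for both probes, and the Ki-Ras arrays for the isoform probe. The Ha-Ras arrays differed by 0.045 for GI_9845514-I and 0.040 for GI_9845515-A after normalization, below the median gap of 0.15 in that line. The deposited signals of both probes were higher on Ha-Ras array A, by 1.24 and 1.17 times, before normalization between arrays. These deposited gaps were 4.99 and 2.81 times the combined bead error. On the uncorrected log2 signal with the median gap set to 0, the Ha-Ras gaps were 0.19 and 0.11, so the closeness depends on the normalization. The Ki-Ras arrays differed by 0.069 for GI_9845514-I and by 0.59 for GI_9845515-A, against a median gap of 0.17 in that line. The latter gap was nearly as wide as in the control line and was reached by 563 of the tested probes, at a level that neither array had detected. In deposited signal the gap of GI_9845515-A there was 8.7 intensity units, 0.98 times the combined bead error.

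**Figure D3:**
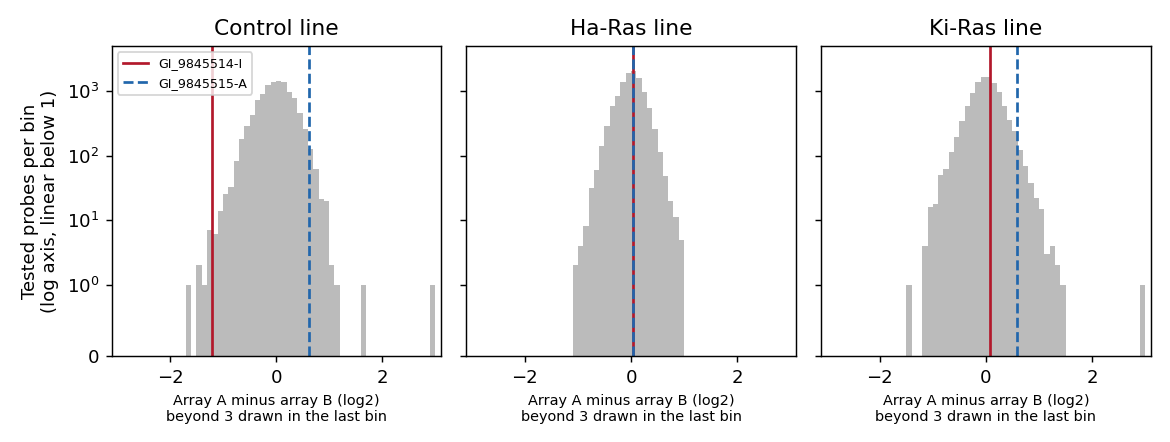
Distribution of the difference between arrays A and B of a line (normalized log2 intensity, bins of 0.1) over the 10848 tested probes, with the values of GI_9845514-I (solid line) and GI_9845515-A (dashed line). In the control line GI_9845514-I lies at -1.20, in the thin left tail, and GI_9845515-A at 0.62 on the right; in the Ha-Ras line both lie near 0.

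The control level therefore decides how far the probes differ from each other. The normalized log2 signal of GI_9845514-I minus that of GI_9845515-A was 0.49 on each Ha-Ras array, 0.07 and 0.59 on Ki-Ras arrays A and B, and -1.28 and 0.54 on control arrays A and B. Signals of different probes have no common scale, so only the shifts of this difference between arrays carry information. The isoform probe had a higher log2 difference than the all-isoform probe by 0.86 between Ha-Ras and control cells and by 0.70 between Ki-Ras and control cells, with control arrays that spread by an SD of 1.29 (n = 2). The groups overlapped in the first of these comparisons and in the second. Without control array A the values were -0.060 and -0.21, and without control array B 1.78 and 1.60, so 1 array set the direction. Between the RAS lines, where no control array enters but GI_9845515-A was undetected in Ki-Ras cells, the fitted difference was 0.16, within the SD of 0.37 of the Ki-Ras arrays. A difference between the isoform probe and the all-isoform probe in their response was thus not resolved by these arrays.

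The fold against control shared this dependence. Without control array A, where GI_9845514-I was low, the probe was 20.2-fold higher in Ha-Ras than in control cells and 10.2-fold lower in Ki-Ras than in control cells. Without control array B the folds were 46.6 and 4.33. For GI_9845515-A the Ha-Ras fold was 21.0 without control array A and 13.6 without control array B. The order of the lines, with Ha-Ras highest and Ki-Ras lowest, was the same with each of the 6 arrays left out in turn.

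Other probes of the array with an isoform and an all-isoform member give the usual distance between such probes. The array carried 732 pairs in which an I probe and an A probe have the same GI number, of which 106 had both probes tested, and 238 pairs in which the A probe is numbered 1 above the I probe, as in the pair described here, of which 60 were tested. Consecutive numbers do not prove that the probes belong to the same gene. Between Ha-Ras and control cells the log2 differences of the members of a pair were apart by a median of 0.35 in same-number pairs and 0.38 in consecutive pairs, against 0.86 for GI_9845514-I and GI_9845515-A. Between Ki-Ras and control cells the medians were 0.39 and 0.40, against a fitted 0.70. Between the RAS lines the medians were 0.29 and 0.45, against a fitted 0.16. The pair was thus farther apart than most where the control arrays enter and, in the main fit, closer than most where they do not. The 0.16 rests on Ki-Ras levels at the edge of detection. It was 0.33 without background correction and also with an offset of 50, settings at which the medians were not computed. Most of these pairs changed less than this one, so the medians do not give the distance usual for changes of this size.

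The shift of the I minus A difference between the control arrays was 1.83 on the log2 scale for this pair. It was the widest of the 60 consecutive pairs, whose median was 0.25, and 1 of the 106 same-number pairs had a wider shift. In the 106 same-number pairs 4 I probes and 6 A probes were called in opposite directions against control, and in the 60 consecutive pairs 3 and 5. The share over all tested probes was 6.92%. Both probes were so called in 2 of the same-number pairs and in 2 of the consecutive pairs, among them this one, which was chosen for that pattern. In the other consecutive pair, GI_37694063-I and GI_37694064-A, the log2 differences were 0.58 and 0.54 in Ha-Ras and -0.45 and -0.60 in Ki-Ras cells. Fitted changes of at least 8-fold in both probes were found between Ha-Ras and control cells in 2 of the 60 consecutive pairs, this one included, and in 1 of the 106 same-number pairs. Between the RAS lines they were found in 1 consecutive pair, this one, and in 0 same-number pairs. Between Ki-Ras and control cells they were found in 0 consecutive pairs and in 1 same-number pair. This pair fell short there, because GI_9845514-I changed by a fitted 6.62-fold. The pair was chosen for such differences, so its place in these counts restates the choice. The share of all tested probes with an 8-fold change was not counted.

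**Figure D4:**
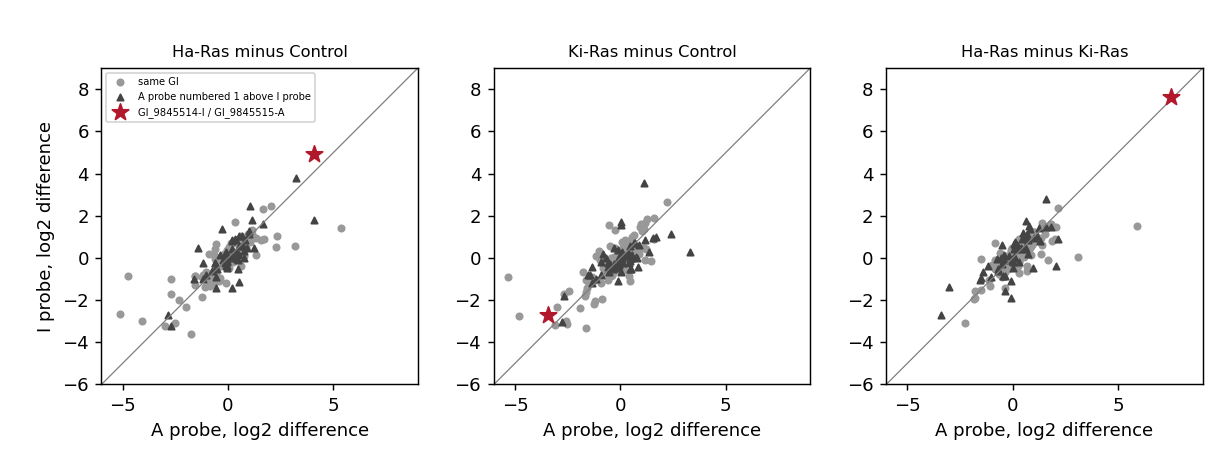
Log2 difference between lines of the I probe against that of the A probe for 106 pairs with the same GI number (circles), 60 pairs with consecutive numbers (triangles) and the pair GI_9845514-I and GI_9845515-A (star), with the line of equal change. The star lies far from 0 in each panel, and between Ha-Ras and Ki-Ras cells it lies beside the line at fitted values of 7.65 and 7.49, the latter against an undetected Ki-Ras level.

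The probes of most like pattern were found by the distance between log2 profiles over the 6 arrays, each centred on its mean, among the 10848 tested probes. This is a description over 6 arrays that fall into 3 lines, in which any probe high in Ha-Ras and low in Ki-Ras cells scores well. GI_20452463-S was nearest to GI_9845514-I, at a root mean square distance of 0.63 (r = 0.991), followed by GI_9845515-A at 0.66 (r = 0.978). GI_24797138-S, GI_37693998-S and GI_19923194-S came next, at distances of 0.67, 0.85 and 0.91. Nearest to GI_9845515-A were GI_19923194-S at 0.50, GI_20452463-S at 0.52 and GI_9845514-I at 0.66, then GI_24797138-S at 0.82 and GI_40538800-S at 0.83. By Pearson's r, which ignores the size of a change, the all-isoform probe ranked 132 in likeness to GI_9845514-I.

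The like probes shared the order of the lines and were undetected in Ki-Ras cells, with 0 Ki-Ras arrays detecting GI_20452463-S, GI_24797138-S, GI_37693998-S, GI_19923194-S or GI_40538800-S. They differed from control by log2 values of 2.29 (GI_40538800-S) to 4.39 (GI_37693998-S) in Ha-Ras cells, and no size is given for Ki-Ras cells. Their own differences between the control arrays, as A minus B, ran from -0.63 for GI_24797138-S to 0.28 for GI_19923194-S, smaller in size than the -1.20 of GI_9845514-I. The files do not pair these IDs with gene names.

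**Figure D5:**
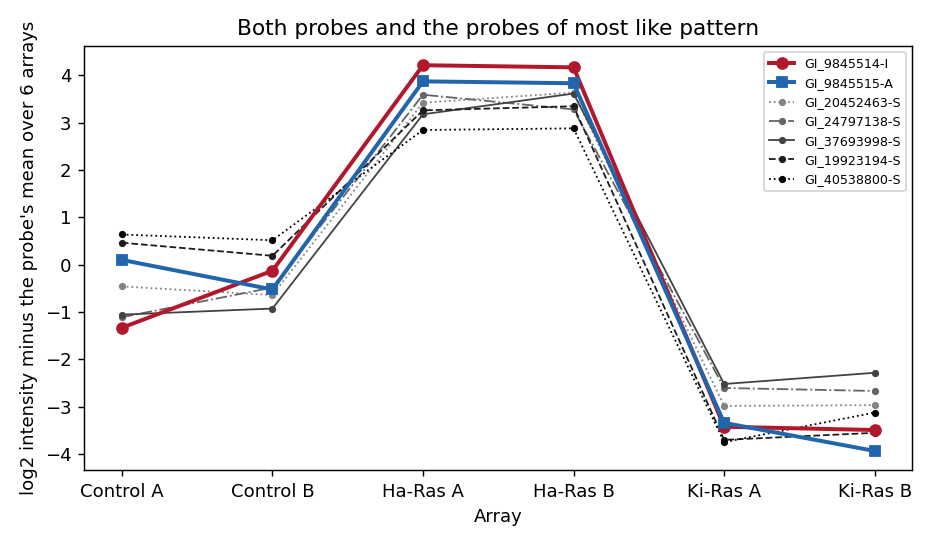
Log2 intensity minus each probe's mean over the 6 arrays for GI_9845514-I and GI_9845515-A (thick lines) and the 5 other probes of most like pattern (thin lines). All are highest on the Ha-Ras arrays and lowest on the Ki-Ras arrays, and the thick lines cross between the control arrays.

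The probes with nearby GI numbers were set beside the pair. Of 12 further probes within 20 numbers of the pair, 8 were tested and 0 were called in opposite directions in the RAS lines against control, a count too small to differ from the 6.92% of all tested probes. Against control, 2 of the 8 were called higher and 3 lower in Ha-Ras cells, and 2 higher and 3 lower in Ki-Ras cells, near the shares of 54% and 55.1% called over all tested probes. GI_9845517-S, numbered 2 above the all-isoform probe, ran against the pair in Ha-Ras cells. Its signals were 4034 and 4861 on the control arrays and 66.7 and 61.9 on the Ha-Ras arrays. On the Ki-Ras arrays they were 551.5 and 576.5, below control as for the pair (log2 difference -3.06). GI_9845497-S was called higher in Ha-Ras cells, as the pair was, by log2 values of 0.82 against control and 0.68 against Ki-Ras cells. It was not called between Ki-Ras and control cells (adjusted p = 0.466, limma). GI_9845501-S, a bright probe at 9801.4 to 16427.3, differed between no 2 lines at the threshold (adjusted p = 0.685, 0.0635 and 0.129, limma). GI_9845506-S had signals of 90.7 and 154.4 on the control arrays, 232 and 215.8 on the Ha-Ras arrays and 219.6 and 274.4 on the Ki-Ras arrays, with both RAS lines above control. The order of GI numbers follows the entry of records into the sequence database and does not by itself show a shared gene.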

How the data were processed

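Total RNA of 6 Caco-2 samples, 2 per line by the sample titles, was amplified and biotin-labelled, per the labels' protocols, and read on Illumina arrays. The authors deposited the mean intensity of each probe, its bead spread (intensity), its bead number and a detection score (a fraction from 0 to 1), per the file headers. Per the design text the values were not normalized. The software was BeadStudio 1.5.13 (per the submitters' processing notes). No source used here says whether background had been removed. The lowest deposited signal of an array was 38.7 to 45.3 intensity units, so the background was taken as still present. The deposited table of the series held the same intensity values (0 differing cells).

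The 4 probes not named by a GI number were left out. Background was corrected with nec of limma 3.58.1 (R 4.3.3; detection p as 1 minus the score, offset 16), followed by log2 and quantile normalization. Probes that both arrays of some line detected (p of 0.01 or less) were fitted across all 6 arrays (lmFit, eBayes; 3 residual and 7.1 prior degrees of freedom), with Benjamini-Hochberg adjustment per comparison. How the replicates were separated is not stated, so p-values measure the spread between these arrays, which may be technical. Precision is limited by there being 6 arrays. The procedure was tested on simulated data. Changes were planted only in the Ha-Ras group and only in probes that all 6 real arrays detected. They were smaller than those of the pair between the RAS lines and between Ha-Ras and control cells. The simulation therefore does not bear on the size of the pair's folds in any comparison.

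The members, lists and rules were chosen with earlier results of these data known. Named were the pair, the 5 probes of most like pattern for each, and probes within 20 GI numbers. GI_37694063-I and GI_37694064-A were named after their values were seen. Gene lists and cell type markers written for gene symbols could not be measured. Probe sequences were not used here. Alternatives covered background, normalization, filter, threshold, likeness, a replicate block and each array left out.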

Additional observations from a re-analysis of the deposited data

Results flagged for a closer look

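The change against control had opposite signs in the RAS lines for both probes. The log2 difference of GI_9845514-I from control was higher in Ha-Ras than in Ki-Ras cells by 7.65, and that of GI_9845515-A by a fitted 7.49, with no Ki-Ras array detecting the latter. These values equal the differences between the RAS lines, since the control level cancels. Each Ha-Ras array lay above both control arrays and each Ki-Ras array below them, and the share of all tested probes so separated was not counted. The differences are given as a description with no p-value, because the pair was chosen on them.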

How the results depend on the processing

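The direction of each difference between lines was the same for both probes under every alternative run. Without background correction, the log2 differences of GI_9845514-I and GI_9845515-A were -1.77 and -2.22 between Ki-Ras and control cells and 6.41 and 6.08 between Ha-Ras and Ki-Ras cells. With an offset of 50 they were 6.71 and 6.38 between the RAS lines, and -2.46 for GI_9845515-A between Ki-Ras and control cells. GI_9845514-I differed between the RAS lines by 7.88 with a common median and by 7.54 with cyclic loess. With 1 array left out, the differences of GI_9845514-I ran from 4.33 to 5.54 (Ha-Ras against control), from -3.35 to -2.11 (Ki-Ras against control) and from 7.59 to 7.69 (Ha-Ras against Ki-Ras). Those of GI_9845515-A ran from 3.76 to 4.39, from -3.75 to -3.14 and from 7.18 to 7.81, where the latter ranges are fitted values against a Ki-Ras level that no array detected. The change of the isoform probe minus that of the all-isoform probe ran from -0.060 to 1.78, from -0.21 to 1.60 and from -0.12 to 0.41, so its sign was not stable in any comparison. Without background correction GI_9845515-A was the probe most like GI_9845514-I (rank 1 in place of 2), and by Pearson's r it ranked 132.

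The number of probes called fell to 2594, 2630 and 2870 with a 2-fold change added, and stayed within 1.5 times under the other alternatives, with ranges of 4357 to 5830, 5077 to 5696 and 5133 to 6594 when 1 array was left out. With the replicate letter as a block they were 5681, 5791 and 6331. The differences between arrays A and B correlated between lines at -0.18, 0.10 and -0.17 across probes, so the letters were not taken to pair the samples. The Ki-Ras levels of both probes are limited by the background.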
